A study of Danio rerio with 4 samples.

Results

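The genes described here encode enzymes between acetyl-CoA and squalene, the early part of cholesterol synthesis. They are acat2, hmgcs1, mvk, pmvk, mvda, idi1, fdps and fdft1, taken by name in pathway order and without a cut on any measured value. They were chosen with earlier results of these data known. The study that made the data had reported higher expression of steroid synthesis genes in the mutant brains. These 8 do not hold every gene of this stretch, and counts over them speak of these 8 alone. All 8 were found among the 31030 genes of the count table, and all 8 passed the filter on low counts, a mean of 10 or more per library, which 19943 genes passed. RNA of whole brains of adult zebrafish at 4 months after fertilization was sequenced in 4 libraries, 1 each from female atrn-/-, male atrn-/-, female wild-type and male wild-type fish. The mutants carry in all their cells a homozygous CRISPR/Cas9 deletion in atrn that leaves a premature stop codon, from a single allele that was inbred, and neither genotype received a treatment. The sources differ on whether a library holds 1 brain or several, so the number of fish behind each value is not known here.

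Most animal cells can build isoprenoids from acetyl-CoA. Acetyl-CoA is joined stepwise and converted to mevalonate, and a pair of kinases, a decarboxylase and an isomerase convert mevalonate to the isoprene units that farnesyl diphosphate is assembled from. Farnesyl diphosphate is a branch point that leads to squalene and sterols, to dolichol, ubiquinone and haem A, and to the lipid anchors of prenylated proteins. In vertebrates the sterol-regulated transcription factor SREBP2 drives most of these genes together when membrane cholesterol is low. In mammals the brain makes its own cholesterol, since lipoproteins of the blood hardly cross the blood-brain barrier, and myelinating glia and astrocytes are its main producers.

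The libraries held between 8654693 and 16254750 counts, the fewest in the female wild type. Levels are given as CPM, the counts of a gene per 1000000 counts of the library after TMM scaling in edgeR, with factors between 0.992 and 1.01. The targeted gene atrn was lower in both mutants, with 32.3 and 28.6 CPM in the female and male mutants against 75.4 and 50.5 CPM in the female and male wild types. Counts over the whole gene include transcripts of the mutated allele. Neuronal markers were abundant in every library, with a summed level between 10540.2 and 11240.1 CPM over 9 of 10 listed genes, and 6 of the 7 liver markers had at most 10 counts in any library. The female wild-type library stood apart by its skeletal muscle markers, which summed to 672 and 133 CPM in the female and male mutants against 5323 and 260.1 CPM in the female and male wild types.

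Taken as a group, these genes were more abundant in the mutant brains. They held 7109 and 10185 counts in the female and male mutants and 3272 and 5666 counts in the female and male wild types. After scaling, their summed level was 542 CPM in the female mutant against 373 CPM in the female wild type, a 1.46-fold ratio. It was 632 CPM in the male mutant against 354 CPM in the male wild type, a 1.78-fold ratio. Abundant genes weigh most in these sums. idi1 alone made up 186 and 219 CPM of them in the female and male mutants and 102 and 119.8 CPM in the female and male wild types. In all 8 genes, both mutant libraries lay above both wild-type libraries, an arrangement found in 18.6% of all genes tested. The smallest gap, lowest mutant over highest wild-type library, was 1.07-fold for acat2, and the widest was 1.55-fold for idi1. In whole brains, a change in the number of cells that make a transcript and a change in the transcript per cell cannot be told apart.

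**Figure D1:**
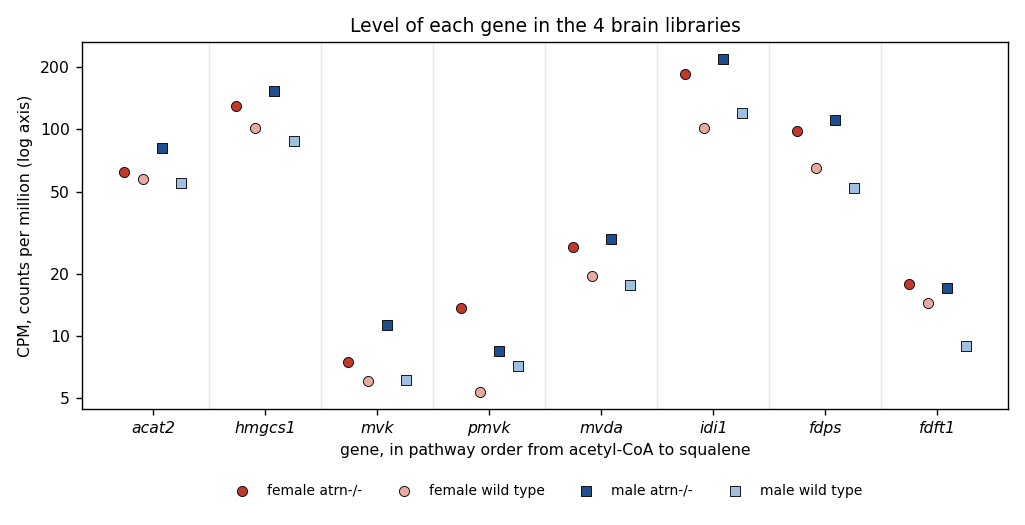
Level of the 8 genes in each library, in CPM on a log axis, with genes in pathway order and 1 point per library. For every gene the 2 mutant points lie above the 2 wild-type points, by the narrowest margin in acat2 (62.0 CPM in the female mutant against 57.7 CPM in the female wild type).

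The pathway opens with acat2, the cytosolic thiolase that condenses acetyl-CoA to acetoacetyl-CoA. It had 813 and 1315 counts in the female and male mutants and 507 and 877 counts in the female and male wild types, which are 62.0 and 81.5 CPM in the mutants against 57.7 and 54.8 CPM in the wild types. The difference lay mostly in the males. The female log2 ratio, mutant over wild type, was 0.10 (95% counting interval -0.059 to 0.27), and the male one was 0.57 (95% counting interval 0.45 to 0.70). Such ratios use a prior count of 2. Their intervals are exact Clopper-Pearson limits of the share of counts that lay in the mutant, rescaled for library size, and cover counting error alone, because each sex has 1 library per genotype. With the sexes fitted together in edgeR (quasi-likelihood, sex as a covariate), the log2 difference between genotypes was 0.34 ± 0.146 (SE), and its p was 0.551 after Benjamini-Hochberg adjustment over all 19943 genes. In fits that left out 1 library, and with it the sex term, this difference was between 0.14, without the male mutant, and 0.54, without the female mutant.

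The next gene, hmgcs1, encodes the cytosolic synthase that adds a further acetyl unit to form HMG-CoA. Its level was 130.0 and 153 CPM in the female and male mutants against 102 and 87.6 CPM in the female and male wild types. Female mutants had a log2 ratio of 0.35 (counting interval 0.23 to 0.47) and male mutants of 0.81 (counting interval 0.71 to 0.90). Both mutants were thus above both wild types, and the female interval ended below the start of the male one. The fit of both sexes gave 0.58 ± 0.137 (SE), with an edgeR p of 0.00370 before and 0.268 after adjustment.

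The kinase genes mvk and pmvk had between 47 and 183 counts per library, and their intervals are the widest of the group. mvk, which phosphorylates mevalonate, had 98 and 183 counts in the female and male mutants and 53 and 98 counts in the female and male wild types. Its level was 7.47 and 11.3 CPM in the mutants against 6.03 and 6.13 CPM in the wild types, so the wild types were close together and the male mutant stood highest. The female log2 ratio of 0.30 had a counting interval from -0.19 to 0.82, and a female difference was not detectable at this depth. The male log2 ratio was 0.87 (counting interval 0.53 to 1.26). Over the 4 libraries edgeR estimated 0.62 ± 0.257 (SE), adjusted p = 0.541. This was 0.30 without the male mutant and 0.90 without the female mutant, both without the sex term.

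pmvk, which adds the next phosphate, differed from the others in that its ratio was higher in the females. It had 179 and 137 counts in the female and male mutants and 47 and 114 counts in the female and male wild types, or 13.7 and 8.50 CPM in the mutants against 5.35 and 7.13 CPM in the wild types. The female mutant was the highest library and the female wild type the lowest. Its female log2 ratio was 1.33 (counting interval 0.88 to 1.85), the largest of the 8 genes in that sex, and its male log2 ratio was 0.25 (counting interval -0.12 to 0.62). For both sexes fitted together the value was 0.77 ± 0.304 (SE) at an adjusted p of 0.518 (edgeR). With single libraries left out and no sex term it was between 0.44, without the female mutant, and 1.12, without the male mutant.

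mvda encodes the decarboxylase that releases isopentenyl diphosphate, the basic isoprene unit. It had 354 and 475 counts in the female and male mutants and 171 and 284 counts in the female and male wild types, that is, 27.0 and 29.5 CPM in the mutants and 19.5 and 17.8 CPM in the wild types. The lowest mutant was 1.39-fold above the highest wild type. In the females the log2 ratio was 0.47 (counting interval 0.20 to 0.74), and in the males it was 0.73 (counting interval 0.52 to 0.95). The joint estimate was 0.60 ± 0.164 (SE) at an adjusted p of 0.332 (edgeR).

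idi1 was the gene of the group that passed the test of both sexes together. It encodes the isomerase that converts isopentenyl to dimethylallyl diphosphate, the primer of isoprenoid chains. Counts were 2434 and 3535 in the female and male mutants and 896 and 1917 in the female and male wild types. Its level was 186 and 219 CPM in the mutants against 102 and 119.8 CPM in the wild types, so each mutant stood above either wild type by 1.55-fold or more. The female log2 ratio of 0.86 (counting interval 0.75 to 0.98) and the male one of 0.87 (counting interval 0.79 to 0.95) differed by -0.0077 (95% counting interval -0.14 to 0.13), the smallest difference between the sexes in the group. It rose in the mutants by 0.87 ± 0.104 (SE) at an adjusted p of 0.0390 (edgeR) on the log2 scale. This call was lost without the sex term (edgeR adjusted p = 0.224) and when any of the 4 libraries was left out and the sex term dropped with it (edgeR adjusted p between 0.0964 and 0.355), with log2 values between 0.74 and 0.99. In the assembly GRCz12tu, idi1 overlaps nck1b, an adaptor protein gene that had 51.5 and 49.7 CPM in the female and male mutants against 40.5 and 53.1 CPM in the female and male wild types. The sources used here do not say whether strand was used in counting.

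fdps encodes farnesyl diphosphate synthase, which joins the isoprene units and is the target of bisphosphonate drugs. It had 1292 and 1794 counts in the female and male mutants and 574 and 832 counts in the female and male wild types. In CPM these were 98.5 and 111 in the mutants against 65.4 and 52.0 in the wild types, and the lowest mutant was 1.51-fold above the highest wild type. The female log2 ratio was 0.59 (counting interval 0.45 to 0.74). The male mutant was 2.14-fold above its wild type, a log2 ratio of 1.09 (counting interval 0.98 to 1.22) and the highest male ratio of the group. Jointly, the difference was 0.85 ± 0.148 (SE) at an adjusted p of 0.127 (edgeR). It passed the threshold in 2 of the 10 alternative fits, in which its adjusted p lay between 0.00258 and 0.522.

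The last gene, fdft1, encodes squalene synthase, which commits farnesyl diphosphate to sterols. It had 234 and 275 counts in the female and male mutants and 127 and 143 counts in the female and male wild types, or 17.8 and 17.1 CPM in the mutants against 14.5 and 8.94 CPM in the wild types. The mutants were close to each other, and the wild types were not, since the female wild type was 1.61-fold above the male wild type. Its female log2 ratio was 0.30, with a counting interval of -0.014 to 0.63 that included 0, and its male log2 ratio was 0.92 (counting interval 0.63 to 1.23). Both sexes together gave 0.62 ± 0.220 (SE) at an adjusted p of 0.472 (edgeR). It was 0.97 without the female wild-type library and 0.27 without the male wild-type library, in fits without the sex term, so its size rests on which wild type is used.

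Counted over the group, 3 of the 8 genes were at least 1.5-fold higher in the female mutant, namely pmvk, idi1 and fdps, where 8.35% of all genes tested were. In the males 6 of the 8 were, where 7.54% of all genes were. These were hmgcs1, mvk, mvda, idi1, fdps and fdft1. Both sexes passed this fold in idi1 and fdps, 2 of the 8 genes, against 2.08% of all genes. In the females fdps was close to this fold, and fell just short of it with counts scaled by library totals or with a count minimum of 50, which left 2 genes in the females. At 2-fold, 1 gene remained in each sex, pmvk in the females and fdps in the males. None of the 8 was 1.5-fold lower in either sex. The median log2 ratio of the 8 genes was 0.41 in the females and 0.84 in the males, beside medians of 0.0013 and -0.0070 over all genes tested.

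In the joint fit, 1 of the 8 genes, idi1, was called higher in the mutant at an adjusted p under 0.05, where edgeR called 0.0652% of all genes higher. Without adjustment, 7 of the 8 were higher at a p under 0.05, where 4.41% of all genes were. The remaining gene was acat2, with an unadjusted edgeR p of 0.0502. The 7 became 4 with DESeq2's Wald test, where 1.90% of all genes were higher. They became 5 without the sex term in edgeR, where 3.47% of all genes were. The median log2 difference of the 8 was 0.62, beside -0.0024 for all genes. Without the female wild-type library and the sex term, the median of the 8 was 0.68, and over the omission of each library it lay between 0.58 and 0.68. Such fits leave 1 genotype with a single library, and whether muscle content enters the values was not tested. With 2 libraries per genotype and terms for sex and genotype, 1 residual degree of freedom remains. The spread behind these p-values is how far the female and male ratios of a gene differ, moderated in edgeR over all genes. Among the 8 genes this difference was smallest for idi1, the gene called. The sources do not say that this spread is between fish.

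**Figure D2:**
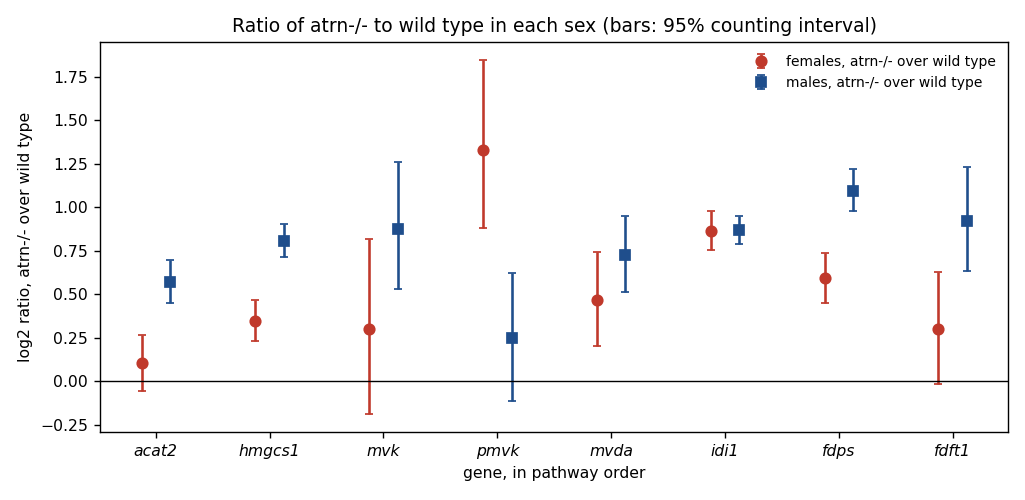
Log2 ratio of atrn-/- over wild type for each gene, in pathway order, in the females and the males (points), with 95% counting intervals (bars). In the females 5 of the 8 intervals lie above 0, as do those of 18.4% of all genes, in the males 7 do, as do 20.3% of all genes, and idi1 is the gene whose ratios in the sexes nearly coincide (0.86 in females and 0.87 in males).

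The ratios were smaller in the females than in the males for 7 of the 8 genes, an order found in 9979 of all 19943 genes, and no library enters the ratios of both sexes. The exception was pmvk. By counting error alone, the difference, female minus male log2 ratio, lay below 0 with its interval in 4 of the 8 genes, as in 16.8% of all genes. It was -0.62 (95% counting interval -1.05 to -0.19) for fdft1, -0.50 (95% counting interval -0.69 to -0.32) for fdps and -0.47 (95% counting interval -0.67 to -0.27) for acat2. The other was hmgcs1, with a difference of -0.46. For mvk, mvda and idi1 the interval of the difference included 0. pmvk had a difference of 1.08 (95% counting interval 0.49 to 1.66). With 1 library for each sex and genotype, no difference between the sexes in the mutant's effect was tested.

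The smaller female ratios went with differences on both sides of the comparison. Within the mutants, 6 of the 8 genes were lower in the female than in the male library, as were 49.9% of all genes, and the counting interval excluded 0 on that side for 5, where 17.8% of all genes did. Within the wild types, 3 of the 8 were lower in the female library, where 51.3% of all genes were, with 1 interval below 0, that of idi1, and 3 above it, those of hmgcs1, fdps and fdft1. Over all genes 20.4% of these wild-type intervals lay below 0 and 19.4% above it. With genotype as the other term, the edgeR comparison of female against male called 0 of the 8 genes at an adjusted p under 0.05, where 0.140% of all genes were called in either direction. At an unadjusted p under 0.05, 0 of the 8 differed, where 7.57% of all genes did in either direction. DESeq2's Wald test called 0 of the 8 as well. The lowest unadjusted edgeR p was that of idi1, 0.0544, with a log2 difference of -0.24 for female over male, and its sign turned in 2 of the 10 alternative fits, in which it lay between -0.73 and 0.27. Those were the fits that left out the male mutant, at 0.27, or the female wild type, at 0.13, along with the genotype term.

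The pathway beyond squalene had much the same values. Of the 13 genes listed for the sterol enzymes after squalene, all 13 were tested. Their median log2 ratio was 0.39 in the females and 0.84 in the males. In the joint fit their median log2 difference was 0.61, and 12 of the 13 had both mutants above both wild types, as 18.6% of all genes did. At an unadjusted edgeR p under 0.05, 9 of the 13 were higher, where 4.41% of all genes were. 1 of the 13 was called, cyp51, the lanosterol demethylase, where 0.0652% of all genes were called higher. It was the highest of the list at 1.00 ± 0.128 (SE) at an adjusted p of 0.0485 (edgeR). DESeq2's Wald test called cyp51 alone as well, where it called 42 of all 19943 genes higher. The lowest was tm7sf2, a sterol reductase gene, at 0.052 (edgeR adjusted p = 0.953). The summed level of the genes before squalene was 1.46-fold higher in the female mutant and 1.78-fold higher in the male mutant than in the wild types, and that of the genes after squalene was 1.39-fold higher in the female mutant and 1.80-fold higher in the male mutant.

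The lists of acetyl-CoA supply and of the mitochondrial and ketone body branch had medians closer to that of all genes. In both lists of this paragraph edgeR called 0 genes in the joint fit, and so did DESeq2's Wald test. The 5 tested genes of acetyl-CoA supply had a median log2 difference of -0.046. At an unadjusted edgeR p under 0.05, 2 of them, aclya and acss2, were higher, where 4.41% of all genes were. Their summed level was 419 and 468 CPM in the female and male mutants against 364 and 344 CPM in the female and male wild types. Most of that sum was aclya, with 279 and 322 CPM in the female and male mutants against 232 and 214 CPM in the female and male wild types. The citrate lyase gene aclya, which makes cytosolic acetyl-CoA, was the highest at 0.43 (edgeR adjusted p = 0.331), and the citrate carrier gene slc25a1b was the lowest at -0.35 (edgeR adjusted p = 0.881). slc25a1b had 43 and 17 counts in the female and male mutants and 24 and 34 counts in the female and male wild types. Its log2 ratio was 0.25 in the females and -0.92 in the males. The 5 tested genes of the mitochondrial and ketone body branch, which handles acetoacetate, had a median of 0.060, with 0 at an unadjusted p under 0.05. Among them acat1, the mitochondrial thiolase, was the highest at 0.15 (edgeR adjusted p = 0.769) and hmgcll1 the lowest at -0.30 (edgeR adjusted p = 0.685).

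The list for the use of isoprenoid diphosphates covers mainly prenylation, dolichol, ubiquinone and haem A, and holds genes of later steps besides direct users. Its 19 tested genes had a median log2 difference of 0.088. edgeR called 0 of them, 0 had an unadjusted p under 0.05, and DESeq2's Wald test called 0. The highest was rce1a, a protease of prenylated proteins, at 0.51 (edgeR adjusted p = 0.763), and the lowest was srd5a3, a polyprenol reductase of dolichol synthesis, at -0.20 (edgeR adjusted p = 0.812). rce1a had 44 and 47 counts in the female and male mutants and 22 and 31 counts in the female and male wild types. ggps1, which extends farnesyl to geranylgeranyl diphosphate, had 41.1 and 38.0 CPM in the female and male mutants against 43.4 and 43.2 CPM in the female and male wild types, a log2 difference of -0.13 (edgeR adjusted p = 0.809). It uses the same substrate as fdft1, and was chosen for that reason after the values were seen.

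Among 9 tested genes of sterol sensing and degradation at the endoplasmic reticulum, the median log2 difference was -0.017, edgeR called 0, 0 had an unadjusted p under 0.05 and DESeq2's Wald test called 0. srebf2, which encodes SREBP2 and was chosen after the values were seen, had 119 and 131 CPM in the female and male mutants against 117 and 128 CPM in the female and male wild types, a difference of 0.032 ± 0.106 (SE) at an adjusted p of 0.956 (edgeR). The highest of the list was srebf1, which encodes a relative of SREBP2, at 0.24 (edgeR adjusted p = 0.647), and the lowest was insig2, which holds the SREBP complex in the endoplasmic reticulum, at -0.42 (edgeR adjusted p = 0.699). The 10 tested genes of cholesterol uptake and efflux had a median of 0.091. edgeR and DESeq2's Wald test both called 0 of these, and at an unadjusted edgeR p under 0.05 there were 1 higher, npc2, and 1 lower, abca1a, in the mutants. mylipb, a ubiquitin ligase gene with a mean under 50 counts, was the highest at 0.66 (edgeR adjusted p = 0.829). abcg1, a cholesterol exporter, was the lowest at -0.39 (edgeR adjusted p = 0.652).

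**Figure D3:**
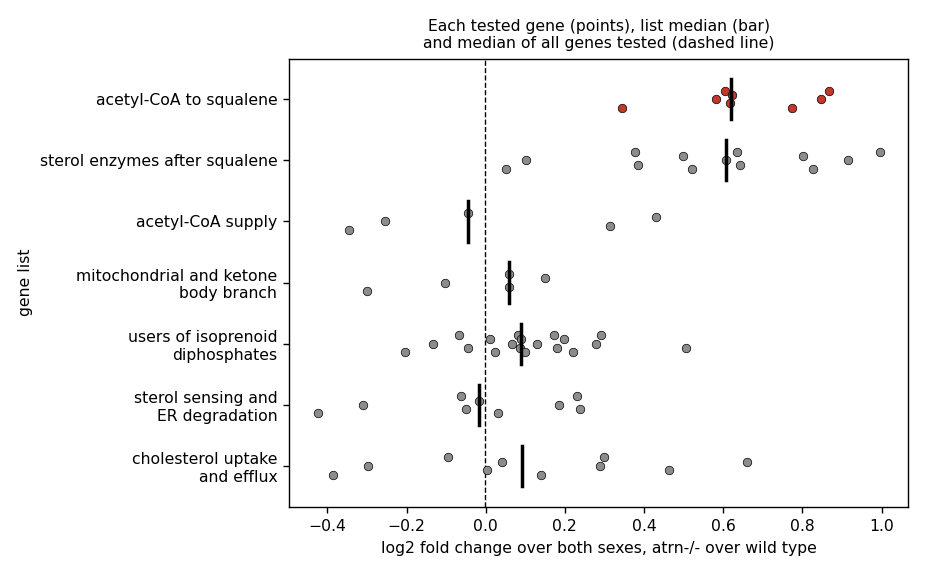
Log2 difference in the joint fit of both sexes, atrn-/- over wild type, of every tested gene in 7 lists (points), with the list median as a bar and the median of all genes tested as a dashed line. The lists before and after squalene have medians of 0.62 and 0.61, and the other lists have medians between -0.046 and 0.091.

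Markers of cell types that make sterols moved with these genes in part. The radial glia list, all 7 genes of which were tested, summed to 5936 and 6763 CPM in the female and male mutants against 4829 and 5421 CPM in the female and male wild types. All 7 had a log2 difference above 0 in the joint fit, with a median of 0.36. edgeR called 0 of them, and 4 were higher at an unadjusted p under 0.05, where 4.41% of all genes were. DESeq2's Wald test called 2, gfap and s100b, higher, where it called 42 of all 19943 genes higher. gfap was the highest, at 0.69 (edgeR adjusted p = 0.139). Both mutants lay above both wild types in 6 of the 7, as they did in 18.6% of all genes tested. The median log2 ratio of this list was 0.20 in the females and 0.29 in the males, and its lowest male ratio was -0.11. In 3 of the 7 the female ratio was below the male ratio, against 7 of the 8 pathway genes. The oligodendrocyte list, all 8 genes of which were tested, summed to 11960 and 12402 CPM in the female and male mutants against 13917 and 10294 CPM in the female and male wild types. Most of that sum was mbpa, with 8541 and 8622 CPM in the female and male mutants against 10349 and 7765 CPM in the female and male wild types. The median log2 ratio of the list was -0.18 in the females and 0.39 in the males, and the female ratio was below the male ratio in all 8 genes. In the joint fit edgeR and DESeq2's Wald test called 0 of the 8. At an unadjusted edgeR p under 0.05, 2 were higher, mbpb and plp1b, where 4.41% of all genes were. Both mutants lay above both wild types in the same 2, as in 18.6% of all genes. The 9 neuronal genes had medians of 0.024 in the females and 0.016 in the males. No gene of these 3 lists was at 0 counts in any library. The part of these cell types in the result was not tested.

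Other markers also differed between the libraries. The muscle list, with 16 of 17 genes tested, was lower in both mutants in the sums given above. Of these genes edgeR called 2, pvalb1 and myha, lower at an adjusted p under 0.05, where 29 of all 19943 genes were. For myha this call rested on the female wild type. It had 17 and 4 counts in the female and male mutants against 2359 and 2 counts in the female and male wild types. It passed the filter on low counts through the female wild type alone. The 5 tested blood genes summed to 986 and 941 CPM in the female and male mutants against 1812 and 2440.5 CPM in the female and male wild types. Of them 3, hbaa1, ba1 and slc4a1a, fell at an adjusted p under 0.05 (edgeR), as did 29 of all 19943 genes. Of 15 listed photoreceptor genes 7 were tested. They summed to 18.6 and 41.5 CPM in the female and male mutants against 7.17 and 5.69 CPM in the female and male wild types. grk7a and opn1lw2 had 0 counts in the female wild type. Of the 7, edgeR called 1, arr3a, higher, where 0.0652% of all genes were called higher. arr3a had 58 and 156 counts in the female and male mutants against 1 and 14 counts in the female and male wild types. pde6c had 14 and 67 counts in the female and male mutants against 6 and 9 counts in the female and male wild types. grk7a, opn1lw2, arr3a and pde6c passed the filter on low counts through the mutant libraries, so the filter itself leans this sum and this call towards the mutants. The female ratio was above 0 in 6 of the 7. The 3 tested pineal genes summed to 43.2 and 87.4 CPM in the female and male mutants against 14.3 and 15.7 CPM in the female and male wild types. Of them 1, exorh, was called higher, beside the same 0.0652% of all genes. Among the 3, asmt also passed the filter through the mutants, which leans this sum towards them. It had 33 and 112 counts in the female and male mutants against 8 and 9 counts in the female and male wild types. The 6 tested microglial genes summed to 133 and 138 CPM in the female and male mutants against 152 and 116 CPM in the female and male wild types. The 6 endothelial genes summed to 158 and 140.3 CPM in the female and male mutants against 139.6 and 96.5 CPM in the female and male wild types. Whether these contribute to the levels of the pathway genes was not tested.

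The genes most like the group in pattern were looked for among 15521 other genes with a mean of 50 or more counts. Likeness was the Euclidean distance over the 4 libraries between a gene's log2 CPM, centred on its own mean, and the mean centred profile of the 8 genes. That profile was 0.26 and 0.39 in the female and male mutants and -0.28 and -0.37 in the female and male wild types. The 8 nearest were tuba8l, gfap, LOC100535087, ehd2b, si:ch211-39k3.2, gstp1, commd10 and foxg1b, at distances between 0.0659 and 0.0991. Among the 8 pathway genes themselves the distance to their mean was between 0.0590 for mvda and 0.683 for pmvk. Of the nearest 50 genes, 1 was in the list after squalene, msmo1 at rank 24, and 1 in the radial glia list, gfap at rank 2. With 4 libraries, many genes come this close, and the distance is given as a description.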

How the data were processed

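The deposited table of the authors holds unnormalized read counts for 31030 genes in 4 brain libraries. The study's methods name MapSplice for alignment and the submitters' processing notes name HISAT2 and the build GRCz10. The annotation, the counting program and the use of strand are not given in the sources used here. The RPKM values and EB-Seq screen of the study were not used.

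Samples were grouped by the source labels. A mean of 10 or more counts kept 19943 genes. Counts were scaled by TMM in edgeR 4.0.16 (R 4.3.3), and log2 ratios within a sex used a prior count of 2. Within a sex there is 1 library per genotype and no test. Over both sexes, mutant against wild type and female against male were tested in 1 joint fit (quasi-likelihood, edgeR) that had sex and genotype as terms, and p-values were adjusted by Benjamini-Hochberg over all genes. The SE beside a log2 difference is the size of that difference divided by the square root of the test's F statistic. It is thus no measure of spread apart from the test. The joint edgeR fit was also run on simulated counts with known changes. These had the same spread for every gene and no difference between the sexes. They therefore do not show how the fit handles genes whose female and male ratios differ. Intervals were computed with scipy 1.17.1 in Python 3.11.15 and cover counting error only. Total counts were 13116358 and 16254750 in the female and male mutants and 8654693 and 16100263 in the female and male wild types.

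The genes, the lists and the rule for named genes were chosen with earlier results of these data known. Some genes of the pathway and of the lists are not reported here; they were left out of every list, count and median by name, without regard to their values. Named are the 8 genes, the called, highest and lowest gene of each pathway list, called marker genes, the 8 genes nearest in pattern and list genes among the nearest 50. Outside this rule, acss2, ggps1, srebf2, npc2, abca1a, s100b, mbpa, mbpb, plp1b, grk7a, opn1lw2, pde6c, asmt, fasn and tmem97 were chosen after their values were seen. nck1b was named for its overlap with idi1, and LOC141376290 for its overlap with hmgcs1. Overlaps between genes were read from the RefSeq gene table of GRCz12tu, in which all 8 were matched. In it 2 of the 8 overlapped another gene, idi1 with nck1b and hmgcs1 with LOC141376290. The latter name is not in the count table, so its level is not known here. No coordinates, gene lengths, promoter or protein sequences were used, so levels are not compared between genes. Alternatives were total counts, DESeq2 1.42.0 size factors and Wald test, a count minimum of 50 or none, prior counts of 0.5 and 5, a 2-fold threshold, a fit without the covariate, and each library left out in turn.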

Additional observations from a re-analysis of the deposited data

How the results depend on the processing

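The number of the 8 genes called over both sexes was 1 and depended on the fit. It was 3 without the filter on low counts (hmgcs1, idi1 and fdps), 2 with DESeq2's Wald test (idi1 and fdps), 0 without the sex term, and 0 when any 1 of the 4 libraries was omitted together with the sex term, which 3 libraries cannot carry with a test. Since the sex term alone removed the call, the effect of a library on it was not tested. Over all 19943 genes, 13 were called higher in the mutant, 42 with the Wald test and 2 without the sex term. Without the filter it was 130 of 27343 genes. Calls in either direction were 42, and became 294 without the filter, 93 with the Wald test and 5 without the sex term. The cause was not tested. Counts of genes at least 1.5-fold higher, 3 in the females and 6 in the males, became 1 and 1 at 2-fold, a stricter threshold by construction. At 1.5-fold, the count in the females was 2 with library totals and with a count minimum of 50, as fdps fell short of 1.5-fold. At an unadjusted edgeR p under 0.05, 7 of the 8 genes were higher, where 4.41% of all genes were. Over the alternatives with all 4 libraries this lay between 4, with DESeq2's Wald test, and 8, without the filter on low counts. The shares of all genes in these fits were 1.90% and 4.24%. The medians of the 8 genes kept their direction under the alternatives run, and the count called for female against male was 0 in each. Counting a change within 1.5 times, or of a median within its counting interval or 1 median SE, as kept, 47 of 56 values of these and the counts above were kept. For single genes, 248 alternative values kept their side of the threshold or lay within the counting interval, some with another sign where no call was made, 5 lost the call of idi1 and 3 gained a call. Depth limits mvk and pmvk most. Each library left out leaves 1 genotype with a single library, which is assumed to vary like the other genotype.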

Other observations

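Lipid genes outside the lists also lay near the profile of the group, and were chosen after their values were seen. fasn, the fatty acid synthase, was at rank 31 of the nearest genes, with 407 and 430.0 CPM in the female and male mutants against 306 and 284 CPM in the female and male wild types, and a log2 difference in the joint fit of 0.50 ± 0.104 (SE) at an adjusted p of 0.189 (edgeR). tmem97, a sterol-binding membrane protein of the endoplasmic reticulum, was at rank 11, with 19.2 and 19.5 CPM in the female and male mutants against 13.5 and 11.9 CPM in the female and male wild types, and a log2 difference of 0.61 ± 0.184 (SE) at an adjusted p of 0.383 (edgeR). Neither passed the test.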
